A study of Mus musculus with 19 samples.

Results

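The Dlk1-Dio3 domain of mouse chromosome 12 holds one of the largest groups of miRNA genes in the genome, and 90 mature miRNAs of that group were examined. The members are the mature miRNAs on the array whose family number belongs to 1 of 46 hairpins of the domain, leaving out miR-300, miR-376 and miR-381. They were 90 of the 1079 mouse miRNAs on the array. Of these, 18 came from 9 hairpins at the proximal end (miR-127, miR-136, miR-337, miR-431, miR-433, miR-434, miR-540, miR-665 and miR-770) and 72 from the 37 hairpins that remain. The choice used names and no measured value, but it was made with earlier results of these data known. By gene order miR-673 and miR-493 also lie at that end, between miR-770 and miR-337, but they were counted with the hairpins that remain, and none of their arms was detected on enough arrays to be tested.

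The domain is imprinted: the protein-coding genes Dlk1, Rtl1 and Dio3 are expressed from the paternal chromosome and the long noncoding RNAs Meg3, Rian and Mirg from the maternal one. The miRNAs are cut from these maternal transcripts, so a whole series of hairpins can share 1 precursor. miR-127, miR-136, miR-431, miR-433 and miR-434 are encoded antisense to Rtl1, and miR-127 and miR-136 can direct cleavage of its mRNA. The miRNAs from miR-379 to miR-410 form the larger distal block. In adult animals the group is best known from brain, and in skeletal muscle it is known from satellite cells and from growth after birth.

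miRNAs were measured on 19 one-colour arrays from 8 male mice, 4 of the inbred strain C57L/J, which is high-active in running wheels, and 4 of C3H/HeJ, which is low-active. No mouse was treated or allowed to run. Each was housed alone with a locked wheel for 1 week from 8 weeks of age, and tissue was harvested at 9 weeks. The nucleus accumbens, part of the ventral striatum, gave 4 high-active and 3 low-active arrays, the soleus, a slow postural muscle, 4 and 2, and the extensor digitorum longus (EDL), a fast muscle, 2 and 4. Each array is 1 tissue of 1 mouse, each activity group is 1 inbred strain, so that activity and strain cannot be told apart, and whole tissue was used, so fewer cells of a type and less RNA per cell cannot be told apart either. Within a tissue, p-values between strains measure the spread between these few mice. Tests over all 19 arrays took arrays of 1 mouse as independent, so their p-values measure the spread between arrays.

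Values are log2 signals after each array had been scaled to its own 75th percentile. Strains were compared on arrays scaled within 1 tissue, and tissues on all 19 arrays scaled together, so the same miRNA has slightly different values in the 2 settings. A miRNA is called detected on an array where most spots of a probe were well above background. Lower signals were set to a floor, which lay at 4.60 in the nucleus accumbens, 4.60 in the soleus, 4.22 in the EDL and 4.41 over all arrays. Before scaling, the 75th percentile ran from 558 to 1338 intensity units in the nucleus accumbens, from 588 to 1357 in the soleus and from 480 to 1290 in the EDL. The lowest of all was the low-active EDL array of mouse 195, on which 15 members were detected, against 21 to 28 on the EDL arrays of the other mice.

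The tissue labels were set against marker miRNAs. All 7 brain miRNAs were detected on every nucleus accumbens array, whereas in both muscles only miR-128-3p was detected on every array, and miR-124-3p and miR-9-3p, which define neural tissue, were detected on no muscle array. Sums of marker signals are given as the log2 of the summed signals. The 6 muscle miRNAs summed to between 18.72 and 19.57 on the muscle arrays. In the nucleus accumbens their sum lay between 8.75 and 9.08 on 6 arrays and at 11.05 on the low-active array of mouse 197. Of 8 epithelial miRNAs, 7 were detected on 4 nucleus accumbens arrays, 3 high-active (mice 223, 225 and 227) and 1 low-active (mouse 197), where their sum was 12.53 to 14.36, against 7.55 to 8.01 on the remaining 3. Of 3 endocrine miRNAs (miR-375-3p, miR-7a-5p and miR-7b-5p), 2 or 3 were detected on each nucleus accumbens array. The part of the epithelial miRNAs in the results was not tested beyond the values given below without those 4 arrays.

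A mature sequence was found in the RefSeq table of the mouse build GRCm38.p6 for 87 of the 90 members, between chr12:109563710-109743784. The sequences are printed 5′ to 3′ with the seed, bases 2 to 8, in capitals. The first set holds the 5 members with the smallest p between strains in the nucleus accumbens, which share no seed with one another.
miR-770-3p: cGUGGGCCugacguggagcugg
miR-134-5p: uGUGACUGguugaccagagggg
miR-370-3p: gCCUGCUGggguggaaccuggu
miR-377-3p: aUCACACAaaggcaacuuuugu
miR-433-3p: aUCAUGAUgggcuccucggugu
The second set holds members with large differences between brain and muscle, from the proximal end (miR-127-3p, miR-434-3p) to the last hairpin of the distal block (miR-410-3p).
miR-127-3p: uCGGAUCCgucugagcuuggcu
miR-434-3p: uUUGAACCaucacucgacuccu
miR-495-3p: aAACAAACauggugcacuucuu
miR-382-5p: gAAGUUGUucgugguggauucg
miR-154-5p: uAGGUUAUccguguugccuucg
miR-410-3p: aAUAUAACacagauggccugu
The third set holds the members that departed from that pattern, with miR-299a-5p, which is not on the array.
miR-299b-5p: gGUUUACCgucccacauacau
miR-299a-5p: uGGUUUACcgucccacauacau
miR-539-5p: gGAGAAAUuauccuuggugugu
miR-494-3p: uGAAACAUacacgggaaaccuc

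The 21 bases of miR-299b-5p lie whole inside the 22 bases of miR-299a-5p, offset by 1 base, so a probe for the one can pair with the other and the array cannot tell them apart. Their genes face each other on opposite strands, miR-299a-5p at chr12:109710644-109710665 on the plus strand and miR-299b-5p at chr12:109710673-109710693 on the minus strand. The shift of 1 base gives them different seeds. The 87 sequences carried 82 seeds, and only 5 pairs of members shared one. The pairs were miR-370-5p with miR-1193-3p, miR-379-3p with miR-411-3p, miR-379-5p with miR-1193-5p, miR-758-5p with miR-1197-5p and miR-410-5p with miR-494-5p. All 5 pairs are shown because a shared seed is the main sequence feature by which members can share targets, and miR-379-3p with miR-411-3p is the pair of which both members were measured.
miR-379-3p: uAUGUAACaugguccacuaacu
miR-411-3p: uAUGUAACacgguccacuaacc
miR-379-5p: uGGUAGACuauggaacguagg
miR-1193-5p: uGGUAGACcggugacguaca
miR-370-5p: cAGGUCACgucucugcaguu
miR-1193-3p: uAGGUCACccguuuuacuauc
miR-758-5p: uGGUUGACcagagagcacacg
miR-1197-5p: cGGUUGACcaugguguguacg
miR-410-5p: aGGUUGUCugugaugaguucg
miR-494-5p: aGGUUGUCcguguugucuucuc

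Most measured members were higher in the brain region than in either muscle. On the nucleus accumbens arrays 43 to 49 members were detected, against 17 to 23 in the soleus and 15 to 28 in the EDL. Across tissues 49 members from 35 hairpins passed the filter of detection on at least 2 arrays, 15 proximal and 34 others. The remaining 41 were 3 proximal and 38 other members, of which 38 were detected on no array. Since a member could pass through the tissue in which it was high, the counts below describe members with measurable signal and not the whole group.

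In the nucleus accumbens 44 of the 49 members were higher than in the soleus (adjusted p under 0.05, limma), which is 89.8% of them, against 48.0% of all 477 miRNAs tested. The same number, 44, were higher than in the EDL, against 47.8% of all tested. The median difference of the members was 2.84 on the log2 scale against the soleus and 2.53 against the EDL, and the medians over all miRNAs tested were 0.21 in both. Only miR-299b-5p was lower in the nucleus accumbens than in the soleus, where 31.7% of all miRNAs tested were lower, and only miR-299b-5p and miR-539-5p were lower than in the EDL, where 28.3% were. Without the 4 arrays with epithelial miRNAs, 43 members were higher than in the soleus and 43 than in the EDL. Contrasts between high-active mice alone gave 42 and 39 such members, and between low-active mice alone 44 and 43, with no share over all miRNAs given for these contrasts.

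**Figure D1:**
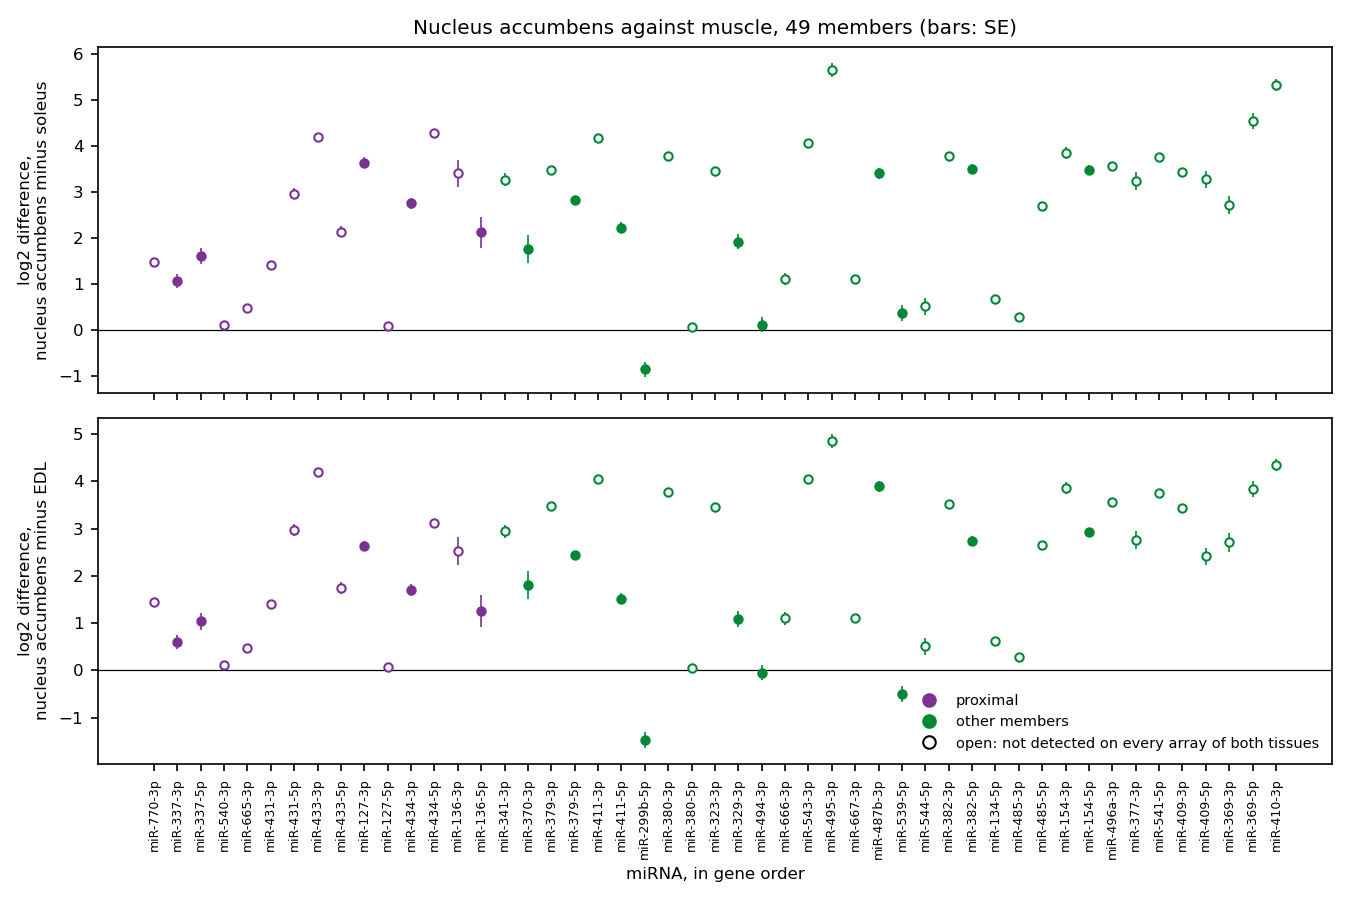
Log2 difference between the nucleus accumbens and the soleus (top) or EDL (bottom) for the 49 members tested, in gene order along the chromosome, with bars for the standard error, purple for the proximal and green for the remaining members. Filled points were detected on every array of both tissues, and open points carry a floor value on some arrays, so they are not measured differences. All but a few points lie above 0, and miR-299b-5p is the lowest in both panels.

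There were 15 members detected on all 19 arrays, and for these the differences are measured on both sides. Of them 12 were higher in the nucleus accumbens than in the soleus, against 38.3% of the 183 miRNAs of all kinds detected on every array, and 12 than in the EDL, against 37.2%. The median differences were 2.12 and 1.52, that is 4.35-fold and 2.86-fold. Against the soleus, all nucleus accumbens arrays lay above all muscle arrays for 12 of the 15 members, as for 30.6% of the 183 miRNAs, and against the EDL for 9, as for 28.4%.

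**Figure D2:**
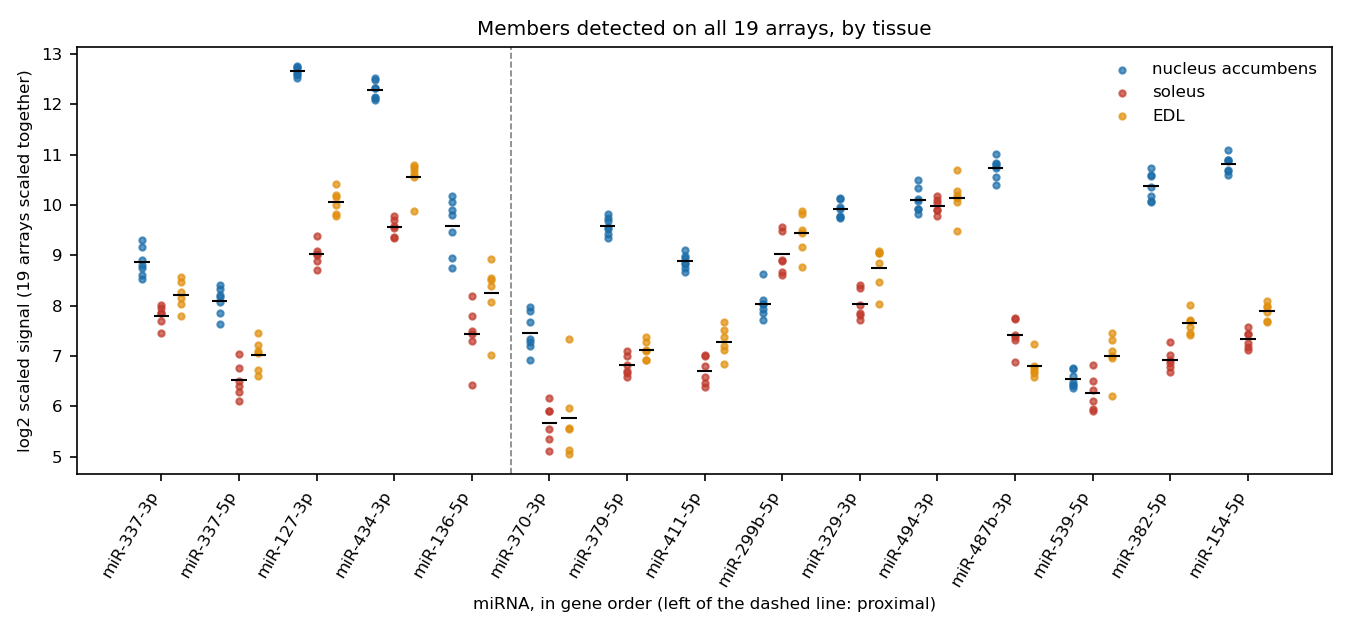
Log2 scaled signal of the 15 members detected on every array, with 1 point per array (7 nucleus accumbens, 6 soleus, 6 EDL) and a line at each tissue mean. Tissues can be compared within a miRNA but heights cannot be compared between miRNAs, which have different probes. Nucleus accumbens points lie on top for most members, and miR-299b-5p shows the opposite order.

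miR-127-3p, the best studied of the miRNAs antisense to Rtl1, had the widest separation from the soleus among members measured on both sides. Its signal over all arrays lay between 12.53 and 12.76 in the nucleus accumbens (median 12.65), between 8.72 and 9.38 in the soleus (median 9.02) and between 9.77 and 10.41 in the EDL (median 10.07). The 3 tissues did not overlap. The nucleus accumbens was higher than the soleus by 3.64 (SE 0.11, adjusted p = 4.11e-14, limma), or 12.5-fold, and higher than the EDL by 2.63 (SE 0.11, adjusted p = 2.92e-12), or 6.20-fold. miR-434-3p, from the neighbouring hairpin, followed the same order with differences of 2.75 (SE 0.13) and 1.71 (SE 0.13).

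Among the distal members measured on both sides, miR-382-5p, miR-154-5p and miR-487b-3p differed most. miR-154-5p lay between 10.60 and 11.09 in the nucleus accumbens, between 7.12 and 7.58 in the soleus and between 7.67 and 8.09 in the EDL, with no overlap between the brain region and either muscle. Its differences were 3.49 (SE 0.10) from the soleus and 2.92 (SE 0.10) from the EDL. miR-382-5p differed by 3.50 (SE 0.11) and 2.74 (SE 0.11), and miR-487b-3p by 3.40 (SE 0.12) and 3.90 (SE 0.12), the last being the largest of the 15 against the EDL. miR-379-5p, from the first hairpin of the distal block, differed by 2.84 (SE 0.08) and 2.43 (SE 0.08), and miR-411-5p, its neighbour, by 2.22 (SE 0.12) and 1.52 (SE 0.12). miR-370-3p differed by 1.76 (SE 0.30) and 1.81 (SE 0.30).

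The largest fitted differences belonged to 2 members that were at or near background in muscle. miR-495-3p lay between 10.04 and 10.68 in the nucleus accumbens, was detected on 3 of 6 soleus arrays and 5 of 6 EDL arrays, and differed by 5.66 (SE 0.15) and 4.86 (SE 0.15). miR-410-3p lay between 9.63 and 10.18 in the nucleus accumbens, was detected on 2 soleus and 5 EDL arrays, and differed by 5.32 (SE 0.13) and 4.35 (SE 0.13). In both, some muscle values are floor values, which have no spread of their own, so these standard errors are smaller than the true ones.

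For 25 members no soleus array, and for 21 members no EDL array, had a detected signal, and there the difference has only a lower bound. To obtain it, the nucleus accumbens mean was divided by a mean over the muscle arrays of the dimmest signal still called detected, or of the miRNA's own signal where that was higher. It was 1-fold or more for 22 members in the soleus and 18 in the EDL. The largest bounds against the soleus belonged to miR-411-3p (at least 15.9-fold higher in the nucleus accumbens), miR-433-3p (at least 15.6-fold), miR-543-3p (at least 14.4-fold), miR-154-3p (at least 12.7-fold), miR-541-5p (at least 11.9-fold) and miR-380-3p (at least 11.8-fold). Against the EDL they belonged to miR-433-3p (at least 15.3-fold), miR-543-3p (at least 14.1-fold), miR-154-3p (at least 12.4-fold), miR-541-5p (at least 11.6-fold), miR-380-3p (at least 11.5-fold) and miR-496a-3p (at least 10.1-fold). miR-379-3p, which shares its seed with miR-411-3p, was at least 9.85-fold higher than in the soleus and was named for that seed after its value was seen. In the EDL miR-411-3p was detected on 3 of 6 arrays and miR-379-3p on none.

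The proximal members had lower median differences than the others when all tested members were taken. For all tested members the median difference from the soleus was 2.12 for the 15 proximal and 3.27 for the 34 others, and from the EDL 1.45 and 2.75. Among the 15 members measured on all arrays the 2 sets lay closer, with medians of 2.12 (5 proximal) and 2.07 (10 others) against the soleus and 1.26 and 1.66 against the EDL. These medians have no test, since members cut from 1 precursor are not replicates.

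Of the arms antisense to Rtl1, miR-434-5p differed by 4.29 (SE 0.09) from the soleus, where it was detected on 2 arrays, and by 3.11 (SE 0.09) from the EDL, where it was detected on 5. With the software's own signal per miRNA its difference from the soleus turned to -0.87 and no longer passed. As for miR-495-3p and miR-410-3p, floor values in muscle make the standard errors of miR-434-5p smaller than the true ones. miR-433-3p had the bounds given above, and miR-433-5p was at least 3.84-fold higher than in the soleus and 1.74 higher on the log2 scale than in the EDL (SE 0.12), where 4 arrays had signal. miR-431-5p, known from muscle satellite cells, was at least 6.59-fold higher than in the soleus, was detected on 1 EDL array, and lay between 6.50 and 8.16 in the nucleus accumbens. miR-431-3p was at least 2.30-fold higher than in the soleus and at least 2.25-fold higher than in the EDL. miR-136-3p differed by 3.41 (SE 0.30) and 2.53 (SE 0.30) and miR-136-5p by 2.12 (SE 0.34) and 1.26 (SE 0.34). With the software's signal miR-136-3p fell to 1.81 and 0.95 and passed in neither comparison. Against the EDL miR-136-5p did not pass with the percentile over all probes (0.60) or with quantile normalization (0.65). Both arms of miR-136 varied widely between mice, with miR-136-5p ranging from 6.43 to 8.19 in the soleus, from 7.02 to 8.92 in the EDL and from 8.76 to 10.18 in the nucleus accumbens.

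At the edge of the domain nearest Dlk1 the differences were smaller. miR-337-3p differed by 1.07 (SE 0.15, adjusted p = 9.39e-06) from the soleus and by 0.59 (SE 0.15, adjusted p = 0.00222) from the EDL, but against the EDL the sign turned to -0.062 with the 75th percentile taken over all probes and to -0.10 with quantile normalization. miR-337-5p differed by 1.60 (SE 0.18) and 1.04 (SE 0.18). Against the EDL miR-337-5p fell to 0.38 and 0.27 in the same settings and did not pass. miR-770-3p was dim, between 5.34 and 6.30 in the nucleus accumbens, and at least 2.34-fold and 2.29-fold higher there than in the soleus and the EDL. miR-665-3p was at least 1.18-fold higher than in the soleus and at least 1.16-fold than in the EDL. miR-540-3p, detected on 4 of 7 nucleus accumbens arrays, passed the test with a fitted difference of 0.11 from each muscle, which is too small for a bound. It passed in 15 of 31 alternatives against the soleus and in 14 of 31 against the EDL, where the sign turned to -0.079 with normexp background correction, as did that of miR-665-3p (-0.049). miR-127-5p, the other arm of the bright miR-127-3p, was detected on 3 nucleus accumbens arrays and no muscle array and did not pass (adjusted p = 0.241 and 0.248).

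miR-299b-5p, with the limit that miR-299a-5p cannot be told from it, was the exception in both muscles. Its signal over all arrays lay between 7.71 and 8.64 in the nucleus accumbens (median 8.03), between 8.62 and 9.56 in the soleus (median 8.90) and between 8.77 and 9.89 in the EDL (median 9.48). The nucleus accumbens overlapped the soleus only at its highest array and did not overlap the EDL. The nucleus accumbens was lower by 0.86 than the soleus (difference -0.86, SE 0.16, adjusted p = 0.000177) and by 1.48 than the EDL (difference -1.48, SE 0.16, adjusted p = 5.9e-07), and both kept their sign and passed under all 32 alternatives tried. miR-539-5p ranged from 6.36 to 6.76 in the nucleus accumbens, from 5.90 to 6.83 in the soleus and from 6.20 to 7.47 in the EDL. It was lower than in the EDL (-0.51, SE 0.17, adjusted p = 0.0141) and did not pass against the soleus (0.37, SE 0.17, adjusted p = 0.0622), and in both comparisons the ranges overlapped. Against the EDL it passed in 28 of 32 alternatives, and not without scaling (adjusted p = 0.725), with spike-in scaling (0.752), without the high-active EDL array of mouse 225 (0.0938) or without the 4 arrays with epithelial miRNAs (0.0522). miR-494-3p did not pass in either comparison and its ranges overlapped in all 3 tissues, with differences of 0.11 (SE 0.17, adjusted p = 0.548) from the soleus and -0.048 (SE 0.17, adjusted p = 0.803) from the EDL.

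Of 12 further miRNAs of the same locus outside the chosen hairpins, 8 were higher in the nucleus accumbens than in the soleus and 1 lower, and 8 were higher than in the EDL and 3 lower, with medians of 2.44 and 2.32.

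Between the slow soleus and the fast EDL most members did not pass, and the calls that were made rested on the scaling. With 75th percentile scaling 15 of 49 members passed as lower in the soleus, 30.6% of them against 9.43% of all miRNAs tested, 1, miR-487b-3p, passed as higher, against 7.13%, and 33 did not pass. The median over the 49 was -0.033, and 20 of them were detected in neither muscle. Of the 15 members detected on all muscle arrays 13 were lower in the soleus, 9 of them past the test, against 12.1% of the 214 miRNAs of all kinds detected on those arrays, with a median of -0.62, while the 214 had a median of 0.02. With the 2 muscles scaled without the nucleus accumbens 14 of the 15 were lower, 11 past the test. Without any scaling, 12 were lower and none passed, and with scaling by spike-in controls 12 were lower and none passed. In these last 2 settings the median over the 214 moved to 0.26 and 0.36, and that of the 15 members to -0.38 and -0.28. Such scalings apply 1 factor per array, which moves miRNAs detected on all arrays nearly alike. The distance between the 2 medians could therefore hardly change, and it lends nothing to the difference.

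**Figure D3:**
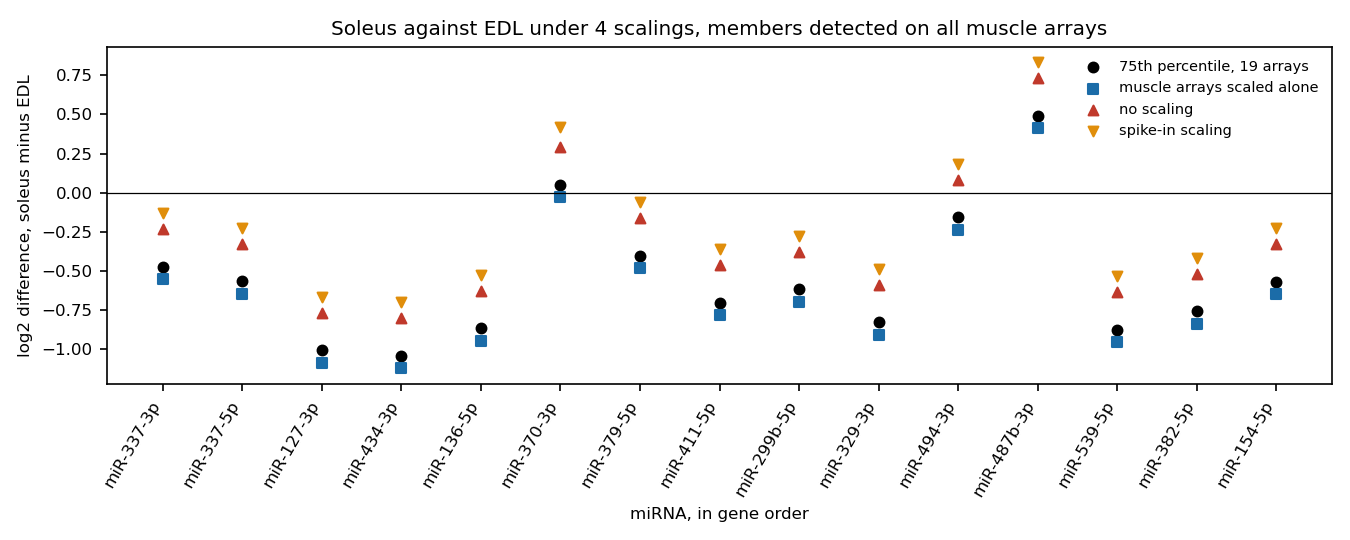
Log2 difference between soleus and EDL for the 15 members detected on all 12 muscle arrays, under 4 ways of scaling the arrays. Each scaling divides an array by a common factor, which shifts all members by about the same step. Their order is thus kept by construction, while their distance from 0 changes. miR-127-3p and miR-434-3p are the lowest and miR-487b-3p the highest in each setting.

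The members with the smallest p were from both ends of the locus. miR-434-5p was lower in the soleus by 1.18 (difference -1.18, SE 0.09, adjusted p = 3.25e-07), though only 2 of 6 soleus arrays had detected signal and the difference turned to 1.39, not past the test, with the software's signal per miRNA. miR-127-3p differed by -1.01 (SE 0.12, adjusted p = 3.2e-05) and miR-434-3p by -1.04 (SE 0.13, adjusted p = 5.95e-05). miR-127-3p did not overlap between the muscles, as given above. miR-434-3p lay between 9.35 and 9.79 in the soleus and between 9.89 and 10.80 in the EDL, again without overlap. miR-410-3p differed by -0.97 (SE 0.14), or 0.48 and not past the test with the software's signal, and miR-382-5p by -0.76 (SE 0.12). For miR-434-5p and miR-410-3p some soleus values are floor values without spread, so their standard errors and p-values are smaller than the true ones. miR-487b-3p went the other way, with 6.89 to 7.75 in the soleus and 6.59 to 7.25 in the EDL (0.49, SE 0.13, adjusted p = 0.0123). Without the low-active EDL array of mouse 195, 21 members passed as lower in the soleus, against 77 of all 477 miRNAs tested. With that array 45 of the 477 passed as lower. Within high-active mice 13 members passed as lower and within low-active mice 7. No share over all miRNAs is given for these contrasts, so the 2 counts cannot be read as a result about the members.

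Whether the strains differ was first asked in the nucleus accumbens, where 49 members could be tested. There 2 members were lower in high-active mice past the threshold, miR-770-3p and miR-134-5p, which is 4.08% of the members against 5.18% of all 386 miRNAs tested, a share near the background. None was higher. At an unadjusted p under 0.05, 13 of the 49 members were lower, against 59 of all 386 miRNAs tested (15.3%). In the other direction 1 member was higher, against 15 of the 386 (3.89%). For 14 members, 28.6%, every high-active array lay below every low-active array, against 14.2% of all miRNAs tested.

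**Figure D4:**
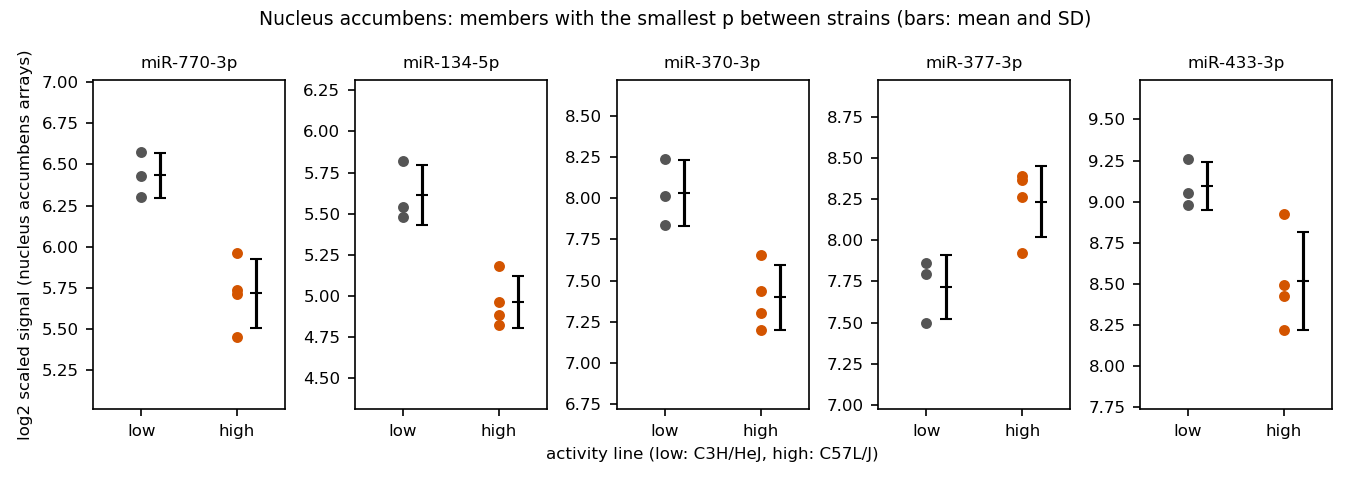
Log2 scaled signal in the nucleus accumbens of the 5 members with the smallest p between strains, for 3 low-active and 4 high-active mice, with mean and SD beside the points. Each panel spans the same number of log2 units. High-active points lie below low-active points in every panel but that of miR-377-3p.

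miR-770-3p, from the hairpin nearest Dlk1, gave within-tissue signals of 5.45, 5.74, 5.96 and 5.71 in high-active mice 223, 224, 225 and 227 and of 6.30, 6.57 and 6.43 in low-active mice 194, 195 and 197. The groups did not overlap. The difference was -0.72 (SE 0.15, 95% interval -1.07 to -0.37, adjusted p = 0.0339, limma), or 1.64-fold lower in high-active mice. Within slides it was -0.61 on slide 2 (1 array against 1) and -0.79 on slide 3 (3 against 1).

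miR-134-5p, which is known in neurons for restraining Limk1 at dendritic spines, was close to background, with 4.82, 4.96, 5.18 and 4.88 in high-active mice 223, 224, 225 and 227 and 5.48, 5.82 and 5.54 in low-active mice 194, 195 and 197. Again no high-active value reached a low-active one. The difference was -0.65 (SE 0.14, 95% interval -0.98 to -0.32, adjusted p = 0.0399), and within slides it was -0.64 and -0.65.

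Neither call held under most other settings. miR-770-3p passed under 3 of 19 alternatives and miR-134-5p under 3 of 18, with the same sign under all of them. With slide as a block no member passed, and without any one of 6 of the 7 arrays none did. Without the 4 arrays with epithelial miRNAs, which leaves 1 high-active and 2 low-active arrays, miR-770-3p differed by -0.67 and miR-134-5p by -0.65. None of the 332 miRNAs tested passed there, so the calls could not be judged without those arrays. The log2 of the summed signals of the 3 endocrine miRNAs moved with strain in the same direction, from 10.32 to 11.41 on the high-active and from 11.90 to 12.41 on the low-active nucleus accumbens arrays, without overlap. That of the red cell miRNAs overlapped, with 10.81 to 12.20 and 11.85 to 13.62. The part of either list in the calls was not tested.

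Of the members that missed the threshold, miR-370-3p gave 7.30, 7.44, 7.66 and 7.20 in high-active mice 223, 224, 225 and 227 and 8.02, 8.24 and 7.84 in low-active mice 194, 195 and 197, without overlap (-0.63, SE 0.16, adjusted p = 0.0589). miR-433-3p gave 8.22, 8.49, 8.93 and 8.43 against 8.98, 9.26 and 9.05 in the same order of mice (-0.58, SE 0.18, adjusted p = 0.137). miR-377-3p was the only member with an unadjusted p under 0.05 in the other direction, with 8.39, 8.37, 8.27 and 7.92 against 7.86, 7.50 and 7.80 (0.52, SE 0.16, adjusted p = 0.137). Without the high-active array of mouse 225 miR-370-3p (adjusted p = 0.046) and miR-433-3p (adjusted p = 0.0393) also passed, which made 4 members.

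The median of the members lay near the array-wide shift, though their shares lower at unadjusted p under 0.05 and lower without overlap, given above, exceeded those of all miRNAs. With 75th percentile scaling 36 of 49 had a lower mean in high-active mice and the median was -0.14, but the median over all 386 miRNAs was -0.10. With the percentile taken over all probes, 18 were lower and the median of all moved to 0.11, and without scaling 11 were lower and it moved to 0.25. Relative to the median of all miRNAs, 26 members lay below and 23 above, and this split changed only to 23 below and 26 above at one end and 30 below and 19 above at the other under other scalings and background correction. The median of the proximal members relative to all was -0.10 and that of the others 0.01. Of 14 hairpins with both arms tested, the arms had the same sign in 8. Among the proximal hairpins, miR-433-3p (-0.58) and miR-433-5p (-0.46) went together, as did miR-431-5p (-0.71) and miR-431-3p (-0.17), while miR-136-3p (0.24) and miR-136-5p (-0.21) had opposite signs.

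**Figure D5:**
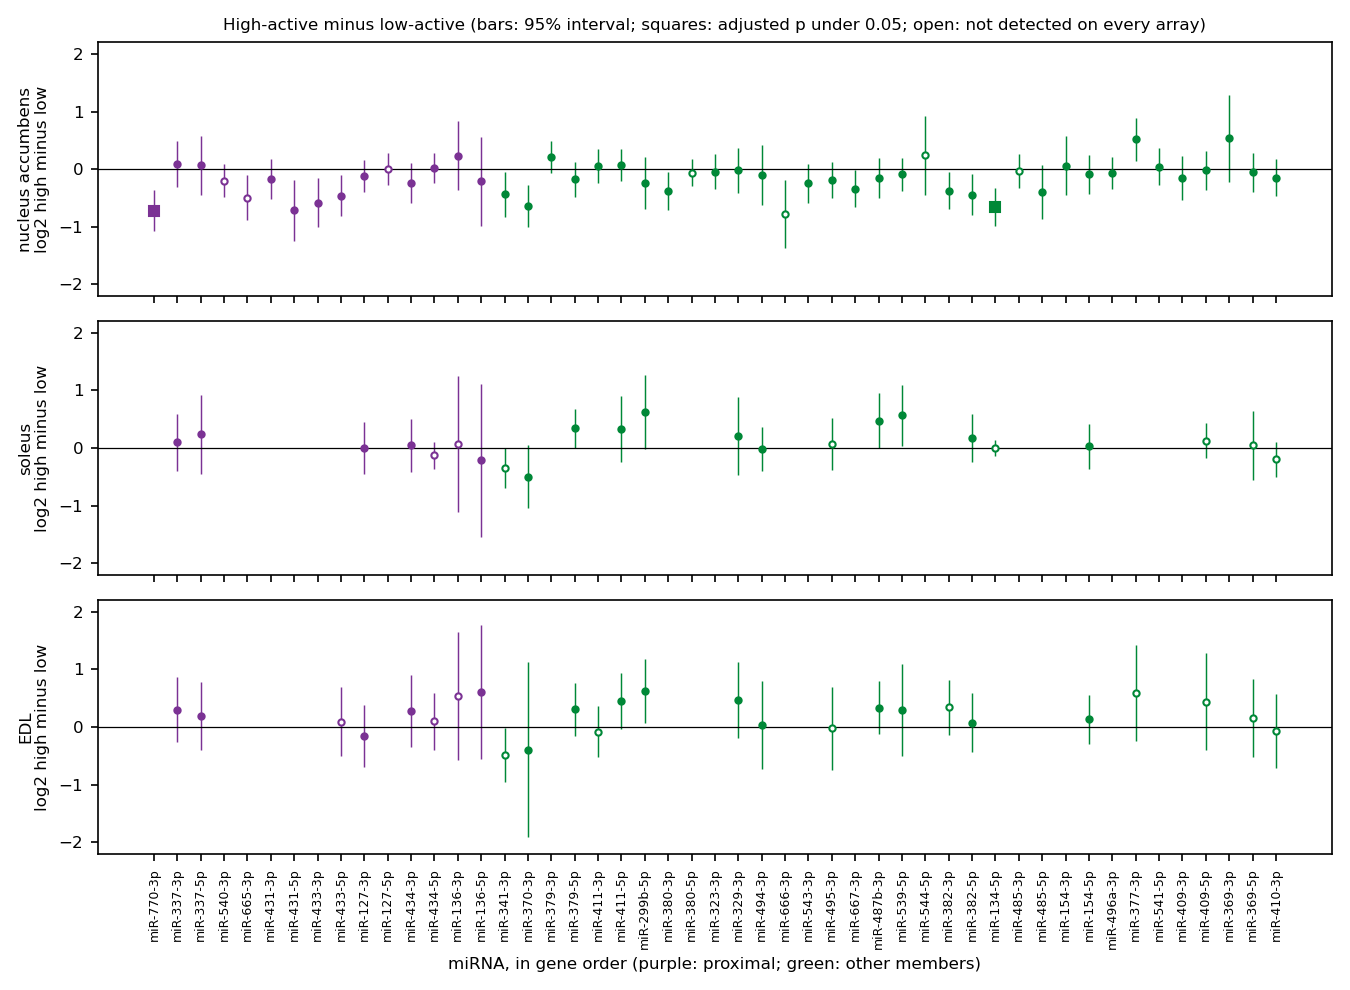
High-active minus low-active log2 difference for each member tested in each tissue, in gene order, with 95% intervals. Squares passed the test, open symbols were not detected on every array, purple marks proximal members. Most intervals cross 0, and the only squares are miR-770-3p and miR-134-5p in the nucleus accumbens.

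In the muscles no member passed between strains. In the soleus 23 members were tested (1.48% of all miRNAs tested passed), 16 had a higher mean in high-active mice, 6 a lower one and 1 no difference, and 2 had an unadjusted p under 0.05, both higher, against 17.2% of all miRNAs tested in either direction. In the EDL 26 members were tested (0.310% of all miRNAs tested passed), 20 had a higher mean and 2 had an unadjusted p under 0.05, 1 in each direction, against 7.12% of all miRNAs tested. The median difference was 0.06 in the soleus and 0.23 in the EDL, against -0.02 and 0.03 over all miRNAs tested. These directions rested on single arrays. Without the low-active EDL array of mouse 195, 14 of the 26 were lower in the EDL, with a median of -0.04 against -0.10 over all. Without the high-active soleus array of mouse 227, 13 of the 23 were lower in the soleus, with a median of -0.04 against -0.09. In the authors' normalized values 25 of 32 members were lower in the EDL, with a median of -0.11, the same as over all miRNAs there. Without scaling all 23 were lower in the soleus, where the median over all miRNAs then moved to -0.68 with the brighter low-active arrays.

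The fitted strain difference of miR-299b-5p was of similar size in both muscles, whose values were scaled apart and cannot be compared with each other. In the soleus it gave 8.86, 8.86, 9.44 and 9.54 in high-active mice 223, 224, 225 and 227 and 8.61 and 8.50 in low-active mice 194 and 195. In the EDL it gave 9.67 and 9.66 in high-active mice 225 and 227 and 9.12, 8.65, 9.26 and 9.14 in low-active mice 194, 195, 196 and 197. The groups did not overlap in either muscle, yet neither difference passed (0.63, SE 0.25, adjusted p = 0.283 in the soleus, and 0.62, SE 0.23, adjusted p = 0.628 in the EDL). With so few arrays such separation was not peculiar to miR-299b-5p. Every high-active array lay above every low-active one for 4 of 23 members in the soleus and 6 of 26 in the EDL. The opposite order held for 2 and 1 members. Over all miRNAs tested this held for 57 in the soleus and 30 in the EDL, with 41 and 35 in the opposite order. Without scaling the soleus difference of miR-299b-5p was -0.086, and without the low-active array of mouse 195 its EDL difference was 0.32. miR-431-3p and miR-431-5p were detected on no soleus array and have no value there. miR-299a-3p, the other miR-299 arm on the array, was detected on no soleus or EDL array and on 1 nucleus accumbens array, and was not tested.

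The remaining members with the smallest p in the muscles had small or partly bounded differences. In the soleus miR-539-5p differed by 0.57 (SE 0.21), miR-379-5p by 0.34 (SE 0.13) and miR-487b-3p by 0.48 (SE 0.19), with adjusted p between 0.264 and 0.278. miR-341-3p was detected on both low-active and no high-active soleus array (-0.35, SE 0.14). Without scaling the differences of miR-539-5p, miR-379-5p and miR-487b-3p turned to -0.14, -0.37 and -0.24, and with normexp that of miR-341-3p turned to 0.081. In the EDL miR-341-3p differed by -0.49 (SE 0.20), miR-411-5p by 0.45 (SE 0.20), miR-487b-3p by 0.33 (SE 0.19) and miR-382-3p by 0.34 (SE 0.20, or -0.023 with normexp), with adjusted p between 0.640 and 0.701. With so few arrays, differences of the size of these intervals could not have been seen, so equal levels are not shown.

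Whether the strain difference itself differed between tissues was tested over all 19 arrays. It did for 5 of 49 members, 10.2%, against 7.55% of all miRNAs tested: miR-770-3p (adjusted p = 0.000455), miR-667-3p (0.00841), miR-433-3p (0.00997), miR-382-3p (0.0134) and miR-134-5p (0.0142). All 5 were detected on all 7 nucleus accumbens arrays. In muscle, miR-770-3p, miR-667-3p and miR-433-3p were detected on no array, miR-382-3p on 2 EDL arrays and miR-134-5p on 3 soleus arrays. Where a miRNA is not detected in a muscle its values there sit at or by the floor with hardly any spread, so for these 5 only the nucleus accumbens side was measured on every array. The strain differences on the common scale were -0.75 in the nucleus accumbens and 0.00 in the soleus for miR-770-3p, and -0.61 and 0.00 for miR-433-3p. miR-382-3p differed by -0.41 in the nucleus accumbens and 0.35 in the EDL. Without the low-active EDL array of mouse 195, 9 members passed, and with the percentile taken over all probes 2 did. No share over all miRNAs is given for these 2 settings. None of the 15 members detected on every array passed, 4 had an unadjusted p under 0.05, against 11.5% of the 183 miRNAs of all kinds detected on every array, and the smallest adjusted p was 0.102, for miR-379-5p. For miR-299b-5p the differences on the common scale were -0.27 in the nucleus accumbens, 0.57 in the soleus and 0.64 in the EDL, with adjusted p = 0.18 for the test of the difference.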

How the data were processed

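Per the labels and methods, total RNA was labelled with cyanine 3 and hybridised to Agilent mouse miRNA arrays, arrays with uneven probe signal were left out by the authors, and Feature Extraction 10.7.1.1 wrote the deposited intensity files, background-subtracted and not normalized between arrays. The deposited log2 matrix holds the authors' normalized values, of unknown centring and with older miRNA names (17, 17 and 32 members could be paired in the nucleus accumbens, soleus and EDL), and served as an alternative. Here, processed intensities of 45440 spots (2889 probes), outlier spots left out and saturated ones kept, were averaged per probe, divided by the array's 75th percentile over probes detected on all arrays compared (594, 456 and 417 within the nucleus accumbens, soleus and EDL, 328 over all), floored and taken to log2. The probe with the highest mean stood for a miRNA. miRNAs detected on at least 3, 2, 2 and 2 arrays were tested with limma 3.58.1 in R 4.3.3 (lmFit, eBayes, Benjamini-Hochberg over all mouse miRNAs tested, threshold 0.05), for strains within tissues and for tissues over all arrays. A difference within rounding error, as between values at a shared floor, was taken as 0 with an unadjusted p of 1. The files were read with jsonlite 2.0.0 and the data.table package, version 1.17.8, and the procedure was tested on simulated data. Precision is limited by the number of arrays.

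The files hold no mean spot signal, so the normexp alternative (offset 50) used the median spot and background signals. Mouse numbers link tissues of 1 animal. Deviations of arrays from their group means correlated with a median of 0.07 in 15 pairs from the same mouse and -0.03 in 43 pairs from different mice. Within a tissue each mouse gave 1 array. No 2 arrays held identical values. Slide numbers were compared as blocks. The miRNAs and lists were chosen with earlier results of these data known. Named miRNAs are those past a strain test, the 5 smallest p where fewer passed, the 8 largest measured and 6 largest bounded tissue differences, those higher in muscle, the 5 smallest p between muscles, every measured proximal member, and miR-299 and miR-431. Members sharing a seed were named as sequences. The values of miR-379-3p, miR-494-3p and miR-495-3p were added after their values were seen.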

Additional observations from a re-analysis of the deposited data

Results flagged for a closer look

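One array of a named member stood apart from its group. On the low-active EDL array of mouse 195, miR-370-3p had a within-tissue log2 signal of 7.22, against 5.09 to 5.33 on the other 3 low-active EDL arrays. Its gap to the nearest array was 0.887 of the range of the group. This was 1 of 58 groups of 4 arrays examined, and chance alone singles out about 1 in 20. The same array had the lowest 75th percentile of all before scaling.

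For 5 members the strain difference differed between tissues, with adjusted p = 0.000455 for miR-770-3p, 0.00841 for miR-667-3p, 0.00997 for miR-433-3p, 0.0134 for miR-382-3p and 0.0142 for miR-134-5p. In muscle these members were at or near the floor, so the test sets a measured difference in the nucleus accumbens against values without spread. Without the low-active EDL array of mouse 195 the number was 9, with no share over all miRNAs given.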

How the results depend on the processing

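Between strains in the nucleus accumbens, the 2 calls stayed 2 with detection required on every array and with no shared floor. They became 1 with quantile normalization and 0 with the percentile over all probes, no scaling, normexp, the software's signal per miRNA, the mean of all probes, no filter, slide as a block, the authors' values, or without the arrays with epithelial miRNAs (chosen after seeing the data). Leaving out 1 array gave 0 to 4. In the soleus the count was 3 with no scaling and 1 with the software's signal, and leaving out an array gave 0 there and 0 in the EDL. Detection on every array, which leaves fewer miRNAs to test, gave 12 members higher in the nucleus accumbens than in the soleus and 12 than in the EDL. Leaving out 1 array gave 42 to 45 and 42 to 44. For soleus below EDL (15 members), the count was 1 with no scaling, 0 with spike-in scaling, 8 with normexp, 23 with no shared floor and 7 within low-active mice, and 12 to 21 when 1 array was left out. Of all 477 miRNAs tested, 2, 2, 20 and 49 passed as lower in the first 4 of these settings. The strain by tissue count (5) was 2 with the percentile over all probes and 4 to 9 when 1 array was left out, with no share over all miRNAs given. With mouse as a replicate block the counts were 44, 44, 17 and 5.

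With the percentile over all probes, the medians of proximal and other members were 0.014 and 0.097 for the strain difference in the nucleus accumbens, 1.57 and 2.80 against the soleus, 1.13 and 2.25 against the EDL, and -0.58 and -0.12 for soleus minus EDL. With quantile normalization they were 1.44 and 2.69 against the soleus, 1.11 and 2.22 against the EDL, and -0.069 for the others in soleus minus EDL. Signs turned for miR-337-3p against the EDL (-0.062 with the percentile over all probes, -0.10 with quantile normalization), with normexp for miR-540-3p (-0.079), miR-665-3p (-0.049) and miR-127-5p (-0.091) against the EDL and for the strain differences of miR-341-3p in the soleus (0.081) and miR-382-3p in the EDL (-0.023), without scaling for the soleus strain differences of miR-539-5p (-0.14), miR-379-5p (-0.37), miR-487b-3p (-0.24) and miR-299b-5p (-0.086), and with the software's signal for miR-434-5p against the soleus (-0.87) and between muscles (1.39) and miR-410-3p between muscles (0.48). The cause of these changes was not tested. Of 2104 values of single members, 1990 had the same direction, or no difference, and the same side of the threshold, 93 lost and 7 gained it, and 14 turned. The number of arrays, and signal near background in muscle, limit all of these results.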
